A study of Mus musculus with 6 samples.

Results

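The circRNAs described here came from 10 mouse genes for RNA-binding proteins that regulate splicing, Mbnl1, Mbnl2, Qki, Rbfox2, Rbms1, Rbms3, Rbpms, Celf1, Celf2 and Adar. Every entry of the deposited circRNA table whose host gene was one of these was taken, after Ensembl gene identifiers had been turned into symbols. This gave 34 of 10023 entries, from 9 of the 10 genes. No entry named Adar as its host. The table lists Qki under the symbol Qk, and without that name 30 entries would have been found.

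The study fed a high-fat diet (HFD) or a chow diet to male mice of the C57BL/6 strain without apolipoprotein E (ApoE-/-), which develop atherosclerosis, in order to find circRNAs of the atherosclerotic aorta. All 6 mice lacked ApoE, were 6 weeks old at the start and stayed on their diet for 12 weeks, so the chow diet group is a control for the diet and not for the genotype. RNA from 1 aorta of each mouse was sequenced, with 3 aortas per diet. The labels name RNase R, an enzyme that digests linear RNA, as the step that isolated circRNA. The paper's account of the libraries starts from total RNA depleted of ribosomal RNA and names no RNase R step. Whether these libraries were treated with RNase R is therefore uncertain. The labels number the aortas 1 to 3 within each diet, and these numbers name separate animals.

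In back-splicing, the downstream end (donor) of an exon is joined to the upstream start (acceptor) of the same or an earlier exon, which closes the RNA into a circle. Splicing regulators bind short motifs in introns and decide which exons are joined, and QKI, muscleblind proteins and ADAR are also known to act on back-splicing itself, QKI and fly muscleblind as promoters of circle formation and ADAR as an inhibitor that edits the paired intron repeats. The fly muscleblind gene makes an abundant circle from its own second exon. In the arterial wall RBPMS is a regulator of the splicing program of differentiated smooth muscle, and QKI takes part in the change of smooth muscle between its contractile and proliferative states.

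A circle was counted by the reads that cross its back-splice. Values for 3 aortas are given in the order of replicates 1, 2 and 3. The HFD libraries held 4694, 5621 and 4875 back-spliced reads and the chow diet libraries 7585, 7142 and 7476. The splicing regulator genes had 15, 25 and 15 of these reads under the HFD against 29, 36 and 32 under the chow diet, 152 of 37393 in all. Their share of the back-spliced reads was 0.357% ± 0.0759 under the HFD and 0.438% ± 0.0615 under the chow diet (SD, n = 3 per diet). The single aortas ranged from 0.308% to 0.445% and from 0.382% to 0.504%, and the diets overlapped. The exact 95% binomial interval of a single aorta was wide, for example 0.179% to 0.527% in HFD replicate 1. Without Rbpms, which held the most reads, the ratio of the HFD share to the chow diet share was 1.05 in place of 0.816. Intervals and floors here cover counting error only and leave out the spread between mice. The intervals can be too narrow even for counting error, since reads copied by PCR are not independent molecules. A floor of 3 reads per library was used, which equals 40.7 to 52.0 SRPBM, the deposited signal in which back-spliced reads are scaled by the mapped reads of the library.

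Because the aortas are bulk tissue, fewer cells of a type and less RNA per cell cannot be told apart in any value given here. Back-spliced reads of smooth muscle marker genes were present in every aorta, with 12, 12 and 9 under the HFD against 22, 20 and 27 under the chow diet. They came from 7 of 11 markers. Myocd, the coactivator that switches on smooth muscle genes, gave 80 of the 102, while Tagln, Cnn1, Myl9 and Des had none. Endothelial markers had 24 reads and macrophage and leukocyte markers 55, of which 39 were from Adgre1, the F4/80 antigen, with none from Cd68. Fibroblast markers had 6 reads, adipocyte markers 20 and skeletal muscle markers 13. Heart muscle and Schwann cell markers had 0. A circle of a marker gene is not its mRNA, so these counts describe the tissue only in part.

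The genes differed widely in how much circular RNA they gave. Over the 6 aortas Rbpms had 56 back-spliced reads, Mbnl1 36, Mbnl2 21, Rbfox2 and Rbms1 10 each, Qki 9, Rbms3 6, Celf2 3 and Celf1 1. Among the 3981 host genes of the table Rbpms ranked 90th by reads, Mbnl1 164th and Mbnl2 348th. A circle with at least 10 reads was found for Rbpms, Mbnl1 and Mbnl2 only. Of the 34 entries, 5 (14.7%) had 10 reads or more, against 6.07% of the whole table. Reads in a single aorta were found for 21 (61.8%), against 74.4%. No entry of these genes had reads in all 6 aortas, where only 197 of the 10023 entries of the whole table did. The Rbpms circle of exons 2 to 5 is listed as 2 entries, circRNA2335 and circRNA8047, that start 1 base apart. Summed, they had reads in all 6 aortas. Reads confined to chow diet aortas were found for 19 entries (55.9%) and to HFD aortas for 7 (20.6%). In the whole table these shares were 47.3% and 33.4%, and the chow diet libraries were the deeper ones. The 34 entries include 3 couples that start 1 base apart and are summed as 1 circle each below. Of their entries, circRNA8047, circRNA4316 and circRNA4453 count here as confined to 1 diet, while the summed circles had reads under both diets.

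HFD and chow diet aortas were compared by edgeR's quasi-likelihood test on TMM-normalized counts. The criteria of the study were applied, which ask for a p-value below 0.05 and for a log2 fold change beyond 1 in either direction. For this the p-value before adjustment was used here. Of the 34 entries, 13 had reads in at least 2 aortas and were tested. None met the criteria, where 4.06% of all 2564 circRNAs tested did. None of the 13 had an unadjusted p under 0.05, and DESeq2 called none either. Without HFD replicate 1, 3 circles met the criteria, where 3.30% of all circRNAs tested did, and without chow diet replicate 2, 2 did, where 5.64% of all did. Of the 3, circRNA2335 and circRNA8047 start 1 base apart and differed in opposite directions. The smallest adjusted p by edgeR with Benjamini-Hochberg adjustment was 0.58. With reads summed per host gene, 6 of the 9 genes could be tested and 1, Rbpms, met the criteria, where 4.46% of all 2240 host genes did. The median log2 fold change of the 6 genes was -0.32, and 5 lay below 0. The median of all host genes tested was -0.17 and moved to 0.02 when libraries were scaled by their size alone, so values near these say little about a gene.

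**Figure D1:**
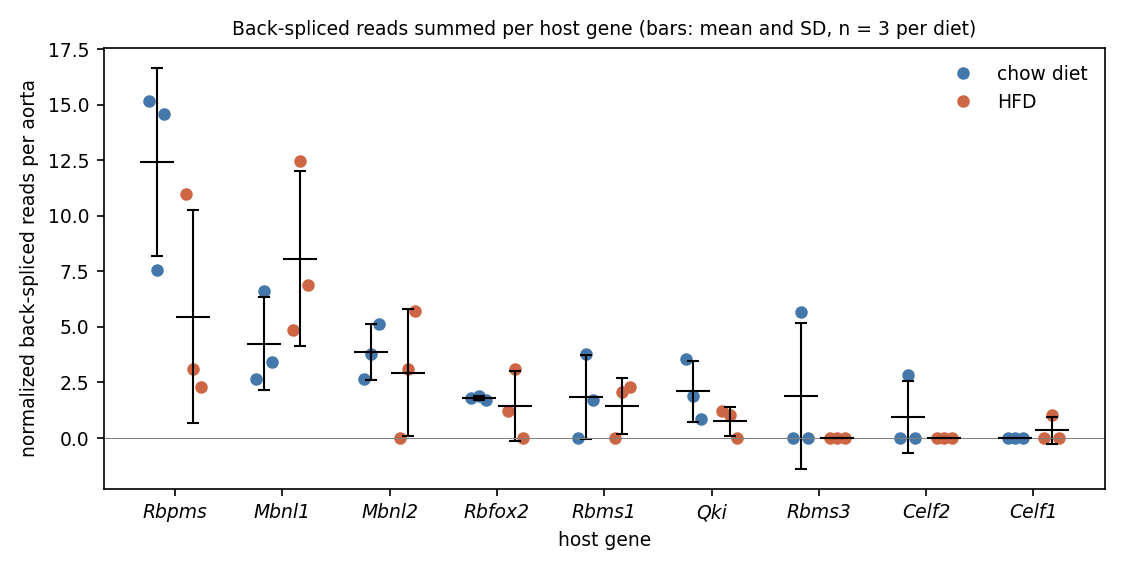
Normalized back-spliced reads summed per host gene (vertical axis, reads scaled to a common library size) for each aorta of mice fed a chow diet (blue) or an HFD (orange), with the mean and SD of 3 aortas per diet in black. The HFD aortas of Rbpms had a mean of 5.46 and the chow diet aortas 12.4, with 1 HFD aorta inside the range of the chow diet aortas, and the diets overlapped for every other gene.

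Rbpms, the smooth muscle splicing regulator, had the most back-spliced reads of the 10 genes, and fewer in 2 of the 3 HFD aortas than in any chow diet aorta. Its 7 entries had 9, 3 and 2 reads under the HFD against 17, 8 and 17 under the chow diet. HFD replicate 1 lay above chow diet replicate 2, and the other HFD aortas lay below all chow diet aortas. Normalized reads were 5.46 ± 4.79 under the HFD and 12.4 ± 4.23 under the chow diet (SD, n = 3 per diet), and an exact two-sided permutation test gave p = 0.2, where 3 aortas against 3 allow no p under 0.1. The log2 fold change was -1.20 (SE 0.59) with an adjusted p of 0.67 by edgeR's quasi-likelihood test with Benjamini-Hochberg adjustment. By counting of pooled reads, the HFD rate was 0.487 times the chow diet rate per back-spliced read (exact 95% interval 0.246 to 0.910). This interval leaves out the spread between mice. The gene met the criteria in 5 of 13 alternatives, among them the fits without HFD replicate 1 (-2.04) and without chow diet replicate 2 (-1.48), and lost the call in 8. The 8 were DESeq2 (-1.03), scaling by library size alone (-1.02), a minimum of 10 reads over the aortas (-1.09), exonic circles only (-1.14), and the fits without HFD replicate 2 (-0.87), HFD replicate 3 (-0.80), chow diet replicate 1 (-1.04) or chow diet replicate 3 (-0.93), with adjusted p from 0.60 to 0.997 over all alternatives.

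The summed smooth muscle markers were also lower under the HFD, mostly through Myocd. Their summed signal was 187 ± 28.3 SRPBM under the HFD and 320 ± 59.0 SRPBM under the chow diet (SD, n = 3 per diet), with 4 of 11 genes tested, a median log2 fold change of -0.66 and no gene meeting the criteria. Their share of all back-spliced reads, which allows for the lower totals of the HFD libraries, was 0.185% to 0.256% in the HFD aortas and 0.280% to 0.361% in the chow diet aortas, without overlap. Of the 4 genes tested 3 were lower and 1, Cald1 with 2 reads, was higher. Myocd, with 11, 9 and 6 reads under the HFD against 17, 16 and 21 under the chow diet, had a log2 fold change of -0.71 (SE 0.48, adjusted p = 0.71 by edgeR). Adipocyte markers had 1, 2 and 3 reads under the HFD against 5, 4 and 5 under the chow diet, or 34.1 ± 17.2 and 64.8 ± 8.73 SRPBM (SD, n = 3 per diet). As shares of all back-spliced reads the diets overlapped, with 0.0615% in HFD replicate 3 and 0.0560% in chow diet replicate 2. These reads came from 3 of 7 markers, with 16 of 20 from Pparg, the regulator of fat cell formation, and none from Adipoq, Plin1, Cidec or Fabp4. The other marker lists with reads had higher means under the HFD, with 79.9 ± 50.2 against 46.6 ± 22.7 SRPBM for endothelium, 159 ± 22.1 against 124 ± 47.7 for macrophages and leukocytes, 28.8 ± 35.9 against 4.78 ± 8.27 for fibroblasts and 51.7 ± 89.5 against 18.1 ± 31.3 for skeletal muscle (SD, n = 3 per diet), and the diets overlapped in each. HFD replicate 3 was the highest aorta for endothelium, fibroblasts and skeletal muscle. Without it, a comparison added after seeing the data, the HFD means were 50.9 SRPBM for endothelium, 8.67 for fibroblasts, 0 for skeletal muscle, which turned the direction, and 161 for macrophages and leukocytes. No gene of any marker list had an unadjusted p under 0.05 by edgeR or by DESeq2. The part of cell content in the Rbpms value was not tested.

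The reads of Rbpms came mostly from circles that begin at the same acceptor. Of 54 exonic reads, 45 used the start of exon 2, at position 33866404 of chromosome 8 (reverse strand, GRCm38). The most-read circle, circRNA2335, joins exons 2 to 5 (chromosome 8 from 33834304 to 33866404, 331 nt, all coding) and had 26 reads, 46.4% of the gene (exact 95% interval 33.0% to 60.3%). It had 5, 0 and 0 reads under the HFD against 7, 4 and 10 under the chow diet. Only HFD replicate 1 overlapped the chow diet aortas. The log2 fold change was -1.66 (SE 1.05, adjusted p = 0.58 by edgeR). Without HFD replicate 1 the remaining HFD aortas were at 0 and the circle met the criteria (adjusted p = 0.56 by edgeR).

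This value depended on how the table splits reads. The table holds 475 couples of entries that share chromosome, strand and end and start 1 base apart, and the entry with the later start carries an Ensembl identifier as gene name in all 475. Of 1672 aorta values with reads in such a couple, 9 had reads in both entries and 1663 in 1 of them. The partner of circRNA2335, circRNA8047, had 0, 3 and 2 reads under the HFD and none with chow. HFD replicates 2 and 3, which were at 0 for circRNA2335, were the aortas that held circRNA8047. Summed as 1 circle, both had 5, 3 and 2 reads under the HFD against 7, 4 and 10 under the chow diet. The diets overlapped and the log2 fold change became -0.65 (SE 0.79, adjusted p = 0.95 by edgeR). The circle of exons 2 to 4, 180 nt long, was split in the same way. circRNA2549 had 4, 0 and 0 reads under the HFD against 6, 0 and 0 under the chow diet, and circRNA4316 had 4 reads in chow diet replicate 2. Their sum had a log2 fold change of -0.86 (SE 1.20, adjusted p = 0.95 by edgeR), and replicates 2 and 3 of the HFD and replicate 3 of the chow diet were at 0. The gene sums above are not affected by the split.

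The back-splice junctions of Rbpms are shown because they share ends, circRNA2335 and circRNA4316 the acceptor of exon 2, and circRNA2335 and circRNA2336 the donor of exon 5. Each line gives the last 25 bases of the donor exon in lower case and the first 25 bases of the acceptor exon in capitals, from the GENCODE vM21 transcripts. The first is the circle of exons 2 to 5, the second that of exons 2 to 4, and the third that of exon 5 alone, which had 3 reads, all on the chow diet.
circRNA2335: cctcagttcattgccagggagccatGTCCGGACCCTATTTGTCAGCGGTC
circRNA4316: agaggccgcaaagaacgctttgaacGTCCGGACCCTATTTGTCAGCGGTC
circRNA2336: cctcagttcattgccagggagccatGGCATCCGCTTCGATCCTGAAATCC

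**Figure D2:**
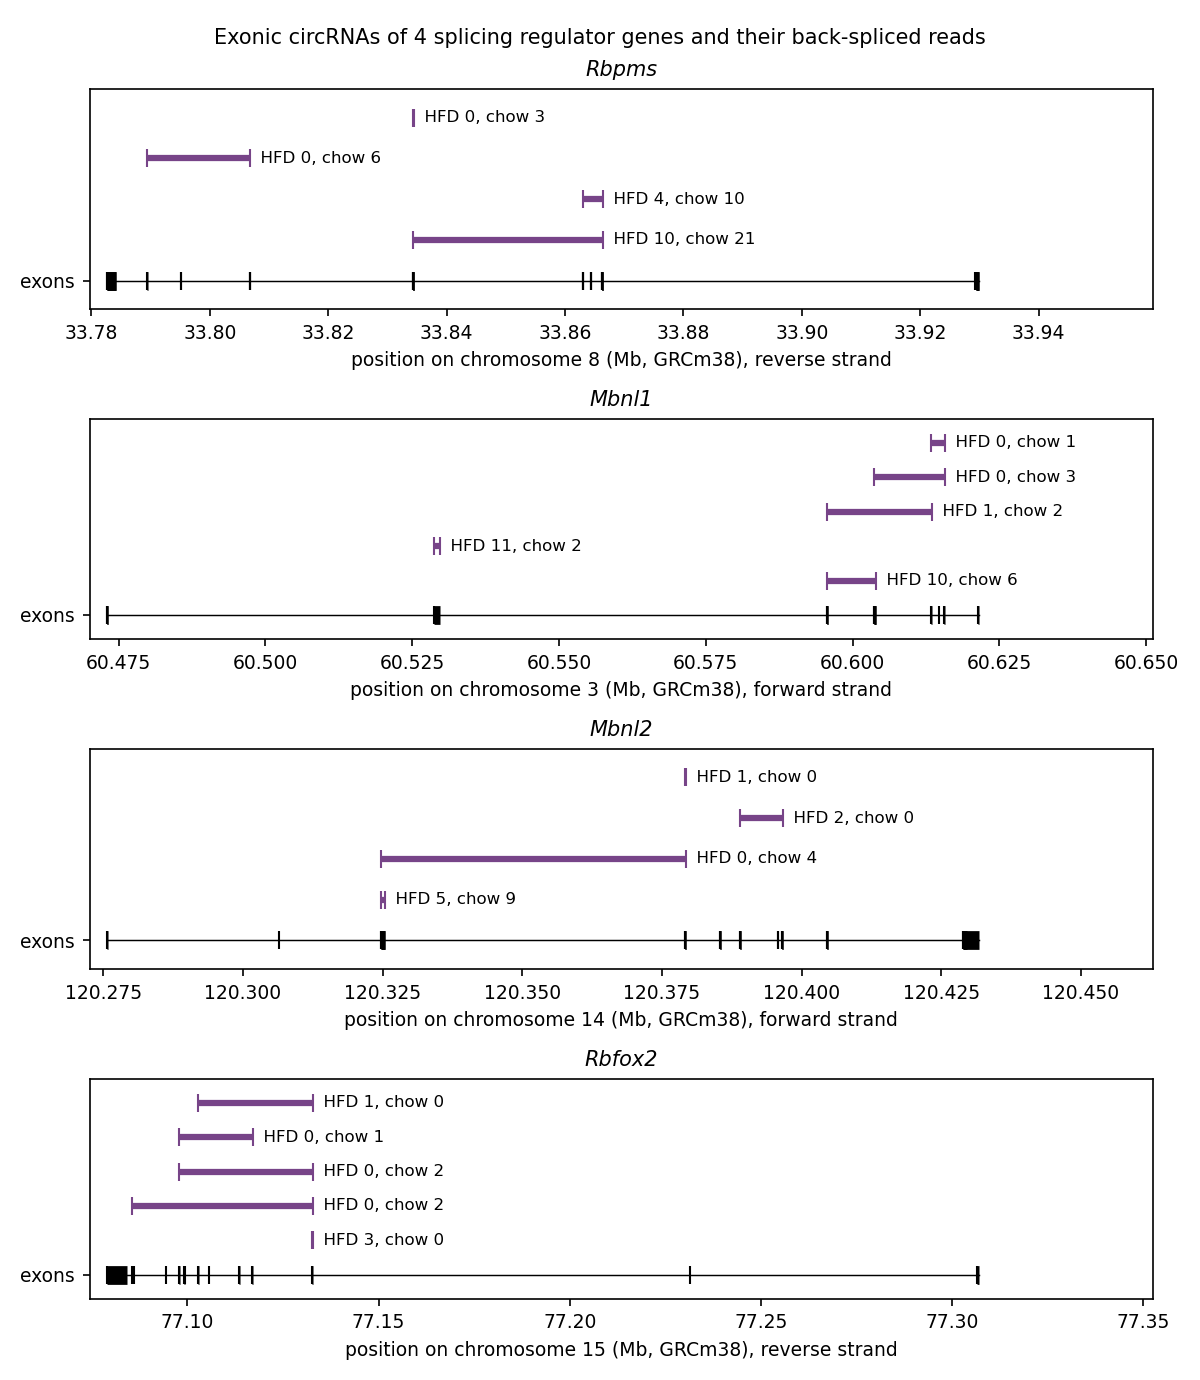
Exonic circRNAs (purple bars from acceptor to donor) of Rbpms, Mbnl1, Mbnl2 and Rbfox2 drawn to scale on their chromosomes (horizontal axis in Mb, GRCm38) above the exons of the listed transcripts (black), with the back-spliced reads summed over 3 aortas per diet beside each bar and entries 1 base apart drawn as 1 circle. Rbpms circles of exons 2 to 5 had 10 reads under the HFD against 21 under the chow diet, and the single-exon circle of Mbnl1 had 11 and 2.

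The muscleblind genes Mbnl1 and Mbnl2 encode zinc finger proteins that bind the same motif and drive splicing toward adult isoforms. Mbnl1 had 4, 12 and 6 reads under the HFD against 3, 7 and 4 under the chow diet. HFD replicate 2 was above all other aortas and the diets overlapped. Normalized reads were 8.07 ± 3.93 and 4.24 ± 2.10 (SD, n = 3 per diet; exact permutation p = 0.2), with a log2 fold change of 0.93 (SE 0.70, adjusted p = 0.75 by edgeR). It was the 1 gene of the 6 tested with a value above 0, and stayed above 0 in all 13 alternatives, from 0.56 to 1.36. Counting error alone gave an HFD to chow diet rate ratio of 2.30 (exact 95% interval 1.12 to 4.85), which leaves out the spread between mice.

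The reads of Mbnl1 came from different regions of the gene. mmu_circ_0010743 joins exons 2 and 3 of its listed transcript (chromosome 3 from 60595594 to 60603894, 372 nt) and had 3, 7 and 0 reads under the HFD against 3, 1 and 2 under the chow diet. It held 44.4% of the reads of the gene (exact 95% interval 27.9% to 61.9%). circRNA3903 is a single exon of 1049 nt farther upstream (60528756 to 60529804), exon 2 of another transcript, and had 0, 5 and 6 reads under the HFD against 0, 1 and 1 under the chow diet. HFD replicates 2 and 3 were high, while HFD replicate 1 was at 0 like chow diet replicate 1. Normalized reads were 4.11 ± 3.72 and 0.594 ± 0.515 (SD, n = 3 per diet; exact permutation p = 0.4). The rate ratio by counting, which leaves out the spread between mice, was 8.04 (exact 95% interval 1.75 to 74.6). The chow diet aortas all lay under the floor of 3 reads. The circle missed the criteria, with a log2 fold change of 2.55 (SE 1.41, adjusted p = 0.58 by edgeR). It met them under scaling by library size alone (2.73), with neighbouring entries summed (2.59), and without HFD replicate 1 (3.13). The adjusted p values there were 0.63, 0.61 and 0.58, in a range from 0.44 to 0.999 over its alternatives. Its log2 fold change ranged from 1.94, without HFD replicate 3, to 3.13.

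Mbnl2 had 0, 3 and 5 reads under the HFD against 3, 4 and 6 under the chow diet, and the diets overlapped. Its log2 fold change was -0.36 (SE 0.98, adjusted p = 0.95 by edgeR) and turned to 0.29 without HFD replicate 1 and to 0.056 without chow diet replicate 3. Of its 21 reads, 18 used the acceptor of exon 2 (chromosome 14, position 120324794). The circle of exon 2 alone, 619 nt long, is listed as mmu_circ_0004992, with 0, 2 and 3 reads under the HFD against 3, 0 and 2 under the chow diet, and as circRNA4453, 1 base shorter, with 4 reads in chow diet replicate 2. As 1 circle it had 0, 2 and 3 reads under the HFD against 3, 4 and 2 under the chow diet, and the diets overlapped. circRNA5090, which goes on to exon 3, had 4 reads in chow diet replicate 3.

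Mbnl1 and Mbnl2 thus both gave a circle from a single exon that carries the start codon of its listed transcript. In each circle 174 bases were coding, 16.6% of circRNA3903 and 28.1% of mmu_circ_0004992. These stretches were identical at 128 of 174 positions (73.6%) when set side by side without gaps. They are printed because they are the part that the circles of both genes have in common, with the 46 differing bases in capitals, from the GENCODE vM21 transcripts.
circRNA3903: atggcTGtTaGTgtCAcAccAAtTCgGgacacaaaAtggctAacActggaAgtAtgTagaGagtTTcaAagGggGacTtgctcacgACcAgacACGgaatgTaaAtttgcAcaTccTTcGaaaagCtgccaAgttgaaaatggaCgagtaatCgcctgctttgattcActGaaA
mmu_circ_0004992: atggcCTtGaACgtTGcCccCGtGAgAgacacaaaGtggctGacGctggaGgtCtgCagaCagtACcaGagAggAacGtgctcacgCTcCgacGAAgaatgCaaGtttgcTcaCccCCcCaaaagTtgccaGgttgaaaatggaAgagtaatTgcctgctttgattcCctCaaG

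Rbms1, Rbms3 and Rbpms belong to families of proteins with RNA recognition motifs. Rbms1 had 0, 2 and 2 reads under the HFD against 0, 4 and 2 under the chow diet. Replicate 1 of both diets was at 0 and the diets overlapped. The HFD aortas were all below 3 reads, so the values are given by counting, with a rate ratio of 0.974 (exact 95% interval 0.202 to 4.11). Both of its circles ended at the same exon end (chromosome 2, position 60779731), with circRNA4580, an entry named by an Ensembl identifier, listed 1 base off at 60779732. circRNA4580, from exons 3 to 6 with 389 nt, had 8 of the 10 reads, and mmu_circ_0001022, from exons 4 to 6, had 2. Rbms3 had 6 reads, all in chow diet replicate 2. Of these, 4 were from circRNA4549, which joins exons 4 to 6 of its listed transcript (chromosome 9 from 116805414 to 116959559). mmu_circ_0001022 of Rbms1 and circRNA4549 of Rbms3 were both 330 nt long, wholly coding, and identical at 255 positions (77.3%), although the exons span 13.1 kb in Rbms1 and 154 kb in Rbms3. Their junctions are shown to set the related genes side by side, with the acceptor exon in capitals.
mmu_circ_0001022: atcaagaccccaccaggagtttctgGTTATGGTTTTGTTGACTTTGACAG
circRNA4549: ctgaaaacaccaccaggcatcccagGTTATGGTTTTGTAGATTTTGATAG

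Qki encodes the STAR family protein quaking, whose binding in flanking introns favours back-splicing. It had 1, 1 and 0 reads under the HFD against 4, 2 and 1 under the chow diet. The diets overlapped at 1 read, and the HFD aortas were all under the floor. The rate ratio by counting was 0.418 (exact 95% interval 0.0423 to 2.19). Its exonic circles, mmu_circ_0000725 of exon 4 alone (144 nt) and mmu_circ_0006531 of exons 2 to 4 (404 nt), had 3 reads each and shared the donor of exon 4 (chromosome 17, position 10238893). Their junctions show the same end of exon 4 in lower case joined to a different acceptor in capitals.
mmu_circ_0000725: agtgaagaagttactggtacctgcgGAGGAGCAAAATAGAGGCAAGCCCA
mmu_circ_0006531: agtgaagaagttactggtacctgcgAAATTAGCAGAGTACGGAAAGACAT

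Rbfox2, which binds the GCATG motif beside alternative exons, had 1, 3 and 0 reads under the HFD against 2, 2 and 2 under the chow diet, all at or below the floor. Its 6 circles were each seen in 1 aorta only. Of its 5 exonic circles, 4 began at the acceptor of exon 3 (chromosome 15, position 77132941) and ended at exons 3, 7, 10 and 13. The circle of exon 3 alone, circRNA7435 with 225 nt, had 3 reads in HFD replicate 2. The largest, circRNA5039, spanned 11 exons and 1074 nt and had 2 reads in chow diet replicate 3. The junctions below share the capitals of exon 3 and differ in the donor.
circRNA7435: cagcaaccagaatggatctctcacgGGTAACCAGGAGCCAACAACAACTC
circRNA3315: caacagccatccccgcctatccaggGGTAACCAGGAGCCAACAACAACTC
circRNA5039: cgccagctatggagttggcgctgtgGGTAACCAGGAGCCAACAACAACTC

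Celf1 and Celf2, which bind GU-rich RNA and often oppose muscleblind proteins in splicing, had almost no back-spliced reads. Celf2 had 3 reads, all in chow diet replicate 2, with 2 from circRNA4469 of exons 7 to 10. Celf1 had 1 read, from circRNA7826 in HFD replicate 2. All the reads of both Rbms3 and Celf2 thus came from 1 mouse. Neither gene, nor Celf1, had reads in enough aortas to be tested, and no difference between the diets could be detected at this depth. For Adar, the RNA-editing enzyme, the absence of an entry says only that no circle was listed.

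All 28 exonic entries could be placed on the exons of their listed transcript, and their median length was 421 nt, against 549 nt for the 8767 placed entries of the table. The median genomic span from acceptor to donor was the longer one, with 12.6 kb against 9.33 kb. Lengths ranged from 144 to 1074 nt, and the exons inside a circle are those of the listed transcript, since only the junction was read. With entries 1 base apart taken as 1 circle, which was done after seeing the data, 25 circles were left and 8296 in the table. Of the 25, 6 (24%) were made of a single exon, against 5.22% of all. Exon 2 was the first exon of 8 (32%), against 28.2%, and 5 (20%) held a start codon, against 13.5%. A length that is a multiple of 3 was found for 10 (40%), against 38.5%. These shares describe the circles and were not tested, because circles of a gene share exons.

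Circular intronic RNAs (ciRNAs), in which an intron lariat keeps its loop, were 6 of the 34 entries (17.6%), against 9.30% of the table. They lay in Celf2, Qki, Rbfox2, Rbms3 and Rbpms and had 1 or 2 reads each. For 5 of the 6 the circle began exactly at the 5′ end of the annotated intron, as did 86.4% of all 932 ciRNAs, and these were 153 to 1963 nt long. The exception, mmu_circ_0015367 of Rbms3, was listed with 34698 nt, began 18526 bases inside its intron and ran 59 bases past the 3′ end of it, so its type in the table did not match the annotation used here.

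The other genes for splicing regulators, a list of 112, gave 434 back-spliced reads from 56 genes. They had 54, 54 and 87 reads under the HFD against 96, 82 and 61 under the chow diet, with 1110 ± 338 and 1101 ± 215 SRPBM (SD, n = 3 per diet). Without HFD replicate 3, a comparison added after seeing the data, the HFD mean was 916 SRPBM, which turned the direction. Of 29 tested, 0 met the criteria or had an unadjusted p under 0.05, by edgeR or by DESeq2, while 12 were lower and 17 higher under the HFD by edgeR, and the median log2 fold change was 0.20. Hnrnpll, a regulator of Ptprc splicing in lymphocytes, had 55 reads, close to the 56 of Rbpms. Hnrnpll had 3, 12 and 17 reads under the HFD against 16, 5 and 2 under the chow diet, and the diets overlapped. Rbpms2, the paralogue of Rbpms, and Mbnl3 had no entry.

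Circles of the splicing regulator genes with at least 1 read numbered 6, 9 and 6 under the HFD against 10, 15 and 12 under the chow diet, and the lowest chow diet aorta was above the highest HFD aorta. The same held for all circles of the table, with 2108, 2260 and 2247 under the HFD against 2965, 2812 and 2795 under the chow diet. With every library brought to 4694 back-spliced reads, a step chosen after seeing the data, the numbers were 6.0, 8.44 and 5.92 under the HFD against 8.54, 12.7 and 9.78 under the chow diet. HFD replicate 2 and chow diet replicate 1 then lay close together, without overlap. The means were then 6.79 ± 1.43 and 10.3 ± 2.14 (SD, n = 3 per diet). All circles of the table then numbered 2062 to 2200 under the HFD and 2199 to 2267 under the chow diet. They overlapped only through HFD replicate 3 at 2199.5 and chow diet replicate 3 at 2198.8. Both margins were narrow, so overlap or its absence does not set these genes apart from the table.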

How the data were processed

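Aortas of 6 ApoE-/- mice, 3 per diet, were sequenced. The authors trimmed reads (Cutadapt), searched the unmapped reads for fusions (TopHat-Fusion) and called circRNAs by CIRCexplorer and CIRI. Whole-number counts of back-spliced reads were deposited for each entry. The authors also deposited a signal, SRPBM, in which counts are scaled by a library depth. Their own fold changes and p-values of HFD against chow diet, in the same table, were not used. The genome build was not given in the sources used here, and GRCm38 coordinates rest on GENCODE vM21, where 7966 of 9091 exonic and intergenic entries start at an exon start.

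edgeR 4.0.16 (R 4.3.3, TMM, no replicate block) was run on entries, and on sums per host gene, that had reads in 2 or more of 6 aortas, and p-values were adjusted over all tested (Benjamini-Hochberg). Normalized reads are counts scaled to the mean effective library size. Exact two-sided permutation tests used scipy 1.17.1. Intervals are exact (Clopper-Pearson) at 95%. The scripts were tested on simulated data. Alternatives were DESeq2 1.42.0, library size alone, the depth behind SRPBM, no filter, at least 10 reads, exonic circles only, entries 1 base apart summed, a replicate block, and each aorta left out. Pairs of libraries within a diet differed beyond sampling noise, with a chi-square of 1.75 to 2.36 per degree of freedom.

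All 10 genes were named, with each circle of at least 10 reads or else the most-read circle, and entries 1 base apart as a sum. Other circles named were chosen after their values were seen. The members and lists were chosen with earlier results of these data known.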

Additional observations from a re-analysis of the deposited data

How the results depend on the processing

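At the circRNA level, where no circle of the splicing regulator genes met the criteria, 1 did (circRNA3903) with library size alone (3.24% of all circRNAs tested) and 1 (again circRNA3903) with entries 1 base apart summed (3.40% of all), and 0 to 3 did when an aorta was left out. The 3 without HFD replicate 1 were circRNA3903, circRNA2335 and circRNA8047, and the 2 without chow diet replicate 2 were mmu_circ_0006531 and circRNA2336. At the host gene level, where Rbpms met the criteria, the number was 0 with DESeq2 (1.52% of all host genes tested), 0 with library size alone (3.97%), 0 with at least 10 reads (5.56%) and 0 with exonic circles only (4.33%), and 0 to 1 when an aorta was left out. The causes were not tested. The ratio of the HFD to the chow diet share, 0.816, was 1.05 without Rbpms and otherwise 0.693 to 0.882. Fitted log2 fold changes turned sign for Mbnl2 (0.29 without HFD replicate 1, 0.056 without chow diet replicate 3, -1.14 to 0.29 with an aorta left out), Rbfox2 (0.33 without HFD replicate 3, -1.37 to 0.33), Rbms1 (0.36 without HFD replicate 1, 0.67 without chow diet replicate 2, -0.82 to 0.67), mmu_circ_0010743 (-0.11 without HFD replicate 2, -0.11 to 1.57), mmu_circ_0004992 (-0.46 with entries summed, -0.42 without HFD replicate 3, -0.28 without chow diet replicate 2, -0.42 to 0.93) and circRNA2549 (0.13 with DESeq2, 0.050 with library size alone, 0.28 and 0.40 without HFD replicates 2 and 3, -0.84 to 0.40). Mbnl1, Qki, Rbpms, circRNA2335 and circRNA3903 kept their sign in every alternative fitted. Over all circRNAs the 104 calls became 23 with DESeq2, 49 with at least 10 reads, 30 with the replicate block and 57 to 117 with an aorta left out. Over all host genes the 100 became 34, 49, 41 and 49 to 118. The replicate numbers did not pair the aortas (correlations of deviations -0.021, -0.021 and -0.025 over 200 genes), and with the replicate block 0 of the circles and 1 of the genes met the criteria. The planned search for motifs in 250 or 500 intronic bases beside the circles was not run, because no genome sequence was used here. Of the 34 entries, 5 had 10 reads or more over the 6 aortas, so counting error is wide for the others.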

Other observations

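Intergenic entries were not counted with the host genes, but 2 overlapped the stretch between the outermost circle ends of one. Gene parts outside these stretches, and Adar, were not searched. circRNA5963 (chromosome 3 from 60613337 to 60615773) lay within Mbnl1 and circRNA5968 (chromosome 8 from 33862986 to 33923928) within Rbpms. Each had 3 reads, all in chow diet replicate 3.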
